A study of Mus musculus with 23 samples.

Results

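NZO/HlLtJ and CAST/EiJ mouse ovaries were compared on the same high fat, high sugar diet, to ask which ovarian transcripts differ between an obesity-prone and a wild-derived strain when both are fed 44% fat. The comparison used 8 of the 23 libraries of the series, chosen by the strain and diet in their titles: 4 of NZO/HlLtJ and 4 of CAST/EiJ, all from female wild-type mice. The mice received the diet, which also held fiber, from 6 weeks of age, and ovaries were taken at 15 weeks. NZO/HlLtJ (New Zealand obese) is an inbred strain whose obesity and diabetes are polygenic, and CAST/EiJ is an inbred strain derived from wild Mus musculus castaneus, so the strains differ across the whole genome and not at 1 gene. The same 2 strains on a control diet with 10% fat and fiber (4 libraries each), and C57BL/6J, the common laboratory strain, on 44% fat (4 libraries), served for comparison. The labels give neither estrous stage, body weight nor blood glucose. Whether each library is a mouse of its own is not stated. The p-values therefore measure a spread between libraries that may be partly technical.

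Frozen ovary was pulverised, polyA RNA was sequenced as 100 bp read pairs, and the libraries held 35.64 ± 5.33 M estimated counts in NZO/HlLtJ and 38.5 ± 3.58 M in CAST/EiJ (SD, n = 4 each), with totals between 31.94 and 43.54 M. Levels are counts-per-million of the scaled library (CPM), given throughout for replicates 1 to 4 in that order, and a log2 fold change is NZO/HlLtJ over CAST/EiJ, with its standard error after ±. The tissue label fitted its markers. Gdf9, a growth factor of oocytes, stood at 84.5, 77.7, 102 and 70.3 CPM in NZO/HlLtJ, against 66.4, 92.1, 64 and 90.2 CPM in CAST/EiJ, and Fshr, the granulosa receptor for follicle-stimulating hormone, at 33.3, 37, 45.4 and 42 CPM in NZO/HlLtJ, against 30.2, 21.1, 16.4 and 38.5 CPM in CAST/EiJ. Foxj1, which marks the ciliated epithelium of the neighbouring oviduct, did not exceed 1.3 CPM in NZO/HlLtJ or 1.24 CPM in CAST/EiJ ovaries. White adipocyte RNA was unequal: the summed level of 16 adipocyte markers was 265.3 to 315.9 CPM in NZO/HlLtJ, against 1146, 695.2, 255.9 and 304.7 CPM in CAST/EiJ, so that CAST/EiJ replicates 1 and 2 stood apart.

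The genes that differ between strains include the effectors of cell-autonomous immunity. Interferons, released on infection, switch on guanylate-binding proteins and immunity-related GTPases, which attack the membranes that enclose intracellular parasites, together with antiviral enzymes and the machinery that presents antigen on major histocompatibility complex (MHC) molecules. In the ovary, macrophages clear dying follicles and regressing corpora lutea. Granulosa cells surround and nourish the oocyte, theca cells make androgen, and luteal cells make progesterone from cholesterol. Secretory cells also rely on the unfolded protein response, a set of chaperones and folding enzymes of the endoplasmic reticulum that is induced when unfolded protein accumulates there.

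Promoter sequences of 3 genes are shown because the lists they belong to moved in opposite directions and carry different regulatory elements. The 3 were chosen for holding a match, from the named genes of these lists in order of fold change. Named genes with no match or no window were passed over, and predicted genes and the chromosome of Iigp1 were left out. The sequences shown therefore do not tell how common a match is. Each is the 250 bases before the start of the gene, 5′ to 3′ on the gene's strand, from RefSeq on the C57BL/6J reference build GRCm38.p6, and so neither the NZO/HlLtJ nor the CAST/EiJ allele. Capitals mark the match to the interferon-stimulated response element (ISRE, searched as GAAA, any 2 bases, GAAA) in Tgtp2, and to the endoplasmic reticulum stress response element (ERSE, searched as CCAAT, any 9 bases, CCACG) in Creld2 and Pdia6, on either strand. Tgtp2 is an immunity-related GTPase, and its window lies at chr11:49064213-49064462 on the minus strand, with the match beginning 70 bases before the start. Creld2 (chr15:88819396-88819645, plus strand) and Pdia6 (chr12:17266339-17266588, plus strand) act in protein folding in the endoplasmic reticulum, and their matches begin 126 and 98 bases before the start.
Tgtp2: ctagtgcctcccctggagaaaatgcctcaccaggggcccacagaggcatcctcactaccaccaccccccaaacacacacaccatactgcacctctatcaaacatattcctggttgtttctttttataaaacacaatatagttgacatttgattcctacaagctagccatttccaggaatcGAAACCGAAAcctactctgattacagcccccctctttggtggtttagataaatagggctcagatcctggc
Creld2: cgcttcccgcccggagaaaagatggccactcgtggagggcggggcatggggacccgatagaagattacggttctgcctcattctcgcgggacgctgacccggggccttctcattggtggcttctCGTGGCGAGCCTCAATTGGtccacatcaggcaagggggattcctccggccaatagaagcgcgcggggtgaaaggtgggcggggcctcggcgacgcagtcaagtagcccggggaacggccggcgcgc
Pdia6: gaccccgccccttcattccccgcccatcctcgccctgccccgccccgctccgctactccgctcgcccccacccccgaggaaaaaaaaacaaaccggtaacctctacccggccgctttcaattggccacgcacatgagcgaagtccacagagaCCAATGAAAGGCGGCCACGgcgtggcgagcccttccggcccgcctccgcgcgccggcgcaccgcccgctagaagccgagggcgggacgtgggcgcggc

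Windows from 250 bases before to 50 bases after the start were found for 12575 of the genes tested, and 3.85% of them held the ISRE letters on either strand. Among interferon-induced GTPases 11 of 13 windows (84.6%) held them, 8 of 10 in genes that were higher in NZO/HlLtJ and 3 of 3 in genes that did not pass. Among other interferon-stimulated genes 16 of 24 windows (66.7%) held them, 5 of 11 in the genes that were higher and 10 of 12 in those that did not pass. The ERSE letters were in 0.183% of all windows and in 8 of 22 windows of unfolded protein response genes (36.4%), 6 of 13 in genes that were lower in NZO/HlLtJ and 2 of 9 in those that did not pass. The gamma-activated site, searched as TTC, any 3 bases, GAA, was in 8.32% of all windows, in 6 of 13 GTPase windows and in 5 of 24 windows of the other interferon-stimulated genes. These matches describe the reference letters only.

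Of 20189 genes tested, 6959 (34.5%) differed between NZO/HlLtJ and CAST/EiJ on 44% fat at an edgeR adjusted p under 0.05. Of the genes tested, 3439 (17%) were higher in NZO/HlLtJ and 3520 (17.4%) were lower. Among the genes that passed, 3137 differed at least 2-fold, 1841 of them higher and 1296 lower. Libraries of the 2 strains did not overlap for 37.3% of all genes tested and for 6072 of the 6959 that passed. A count of list members therefore stands against a background of 17% higher, 17.4% lower and 37.3% without overlap. For 4743 of the genes that passed (68.2%), the C57BL/6J mean on the same diet lay nearer to NZO/HlLtJ than to CAST/EiJ on the log2 scale. The submitters' notes name the C57BL/6J-based build GRCm38, and whether reads of CAST/EiJ were aligned to their own alleles is not given in the sources used here, so the part of read assignment in any single difference was not tested.

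**Figure D1:**
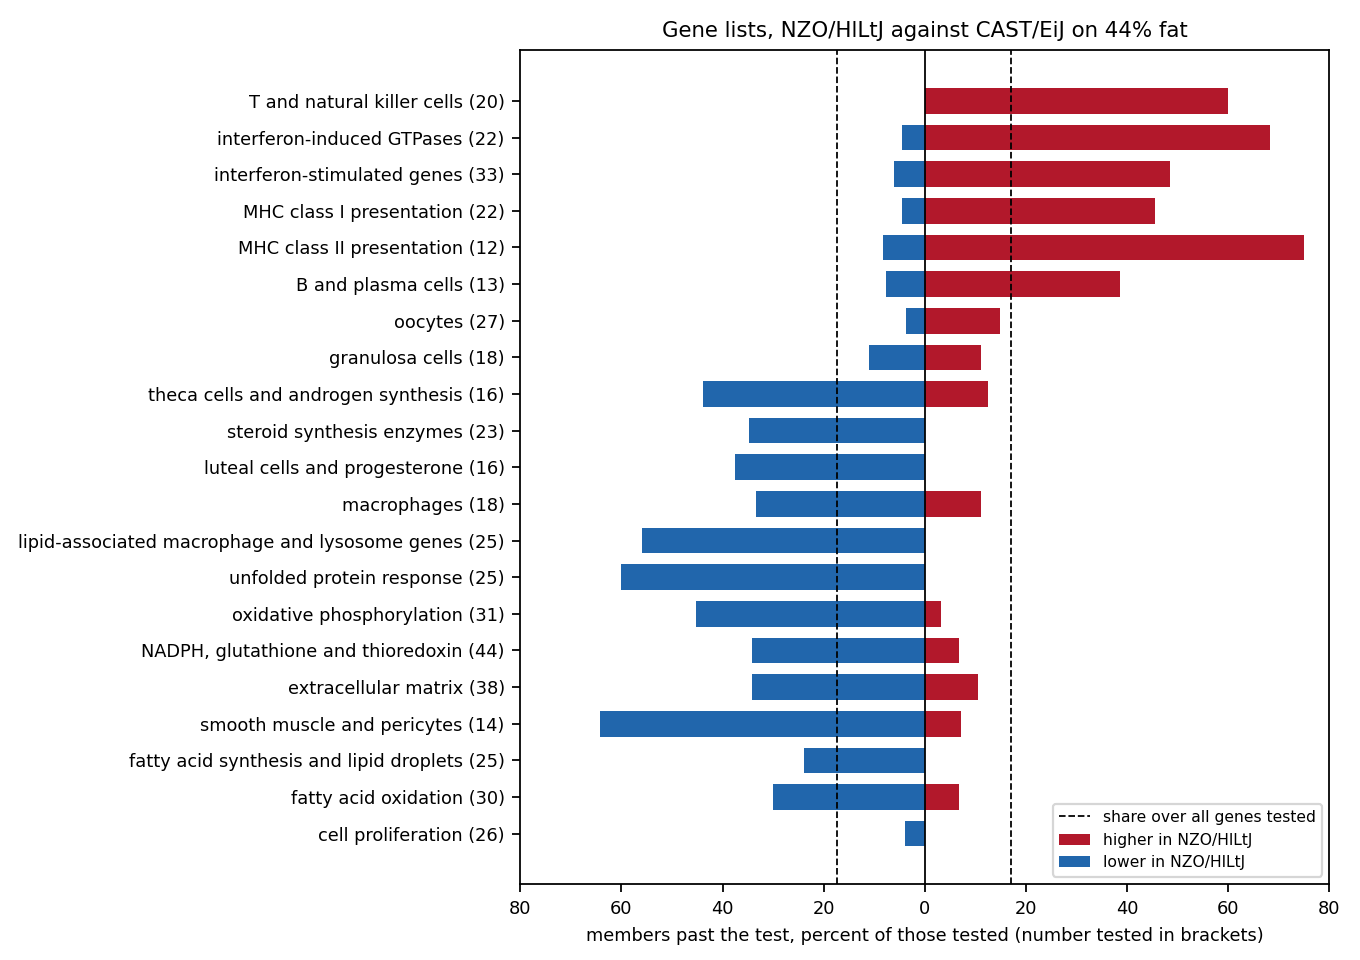
Percent of the tested genes of each list that passed an edgeR adjusted p of 0.05 on 44% fat, higher or lower in NZO/HlLtJ than in CAST/EiJ (4 libraries each); the dashed lines are the shares over all genes tested, 17% higher and 17.4% lower. T and natural killer cell markers, MHC class II genes and interferon-induced GTPases lean to the higher side, and unfolded protein response, lysosome and steroid synthesis genes to the lower side.

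Interferon-induced GTPases were mostly higher in NZO/HlLtJ ovaries: 15 of 22 tested rose, 1 fell and 6 did not pass, and their median log2 fold change was 0.99, against -0.00656 over all genes. Setting the genes unseen in CAST/EiJ at their lower bounds cannot move the list median, because those bounds lie far above it. Iigp1 (chr18:60376029-60392627 on GRCm38), a GTPase that damages the vacuole of Toxoplasma, stood at 40.6, 32.3, 21.3 and 15.8 CPM in NZO/HlLtJ, against 0, 0, 0 and 0 CPM in CAST/EiJ. It had no count in any CAST/EiJ library, and with a floor of 3 counts over that group it was at least 1320-fold higher in NZO/HlLtJ (edgeR adjusted p = 1.25e-09). Tgtp2 (chr11:49057194-49064206), whose promoter is shown above, stood at 15.8, 8.97, 5.33 and 7.09 CPM in NZO/HlLtJ, against 0.0243, 0, 0 and 0.025 CPM in CAST/EiJ. With 2 counts in all CAST/EiJ libraries together, the ratio was 677 with a 95% exact counting interval of 187 to 5600 (edgeR adjusted p = 7.38e-11). C57BL/6J libraries resembled NZO/HlLtJ for both genes, with 17.9 to 25.2 CPM of Iigp1 and 21.3 to 24.1 CPM of Tgtp2.

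The neighbouring predicted GTPase genes 9930111J21Rik1 and 9930111J21Rik2 followed the same pattern. 9930111J21Rik1 had 2.28 to 5.46 CPM in NZO/HlLtJ, against 0 CPM in CAST/EiJ, at least 171-fold higher (edgeR adjusted p = 7.07e-09). 9930111J21Rik2 had 9.66 to 14.8 CPM in NZO/HlLtJ, against 0.0243 to 0.122 CPM in CAST/EiJ. 9930111J21Rik2 had a log2 fold change of 7.61 ± 0.34 (edgeR adjusted p = 4.61e-13). Gbp8, a guanylate-binding protein, was the member that fell, with 1.43, 0.923, 0.487 and 0.665 CPM in NZO/HlLtJ, against 2.8, 2.07, 2.72 and 2.67 CPM in CAST/EiJ. The difference in Gbp8 was -1.56 ± 0.60 on the log2 scale (edgeR adjusted p = 0.0488). Its neighbours on chromosome 5 went the other way, Gbp6 by 1.33 (edgeR adjusted p = 0.00603), Gbp4 by 0.99 (edgeR adjusted p = 0.0288) and Gbp10 by 1.96 (edgeR adjusted p = 0.0181) on the log2 scale. These guanylate-binding proteins are near-identical in part, so how reads were divided among them is uncertain. The Gbp8 call is lost without any 1 of 7 of the 8 libraries, with adjusted p up to 0.122 without NZO/HlLtJ replicate 3, and Gbp4 is lost without any 1 of 5, up to 0.13 without NZO/HlLtJ replicate 1. Without that library Gbp10 is lost too (adjusted p = 0.0604). Gbp2 stood at 78, 84.6, 71.4 and 83.1 CPM in NZO/HlLtJ, against 64.9, 36.2, 67.2 and 46.3 CPM in CAST/EiJ, and did not pass (log2 fold change 0.56 ± 0.24, edgeR adjusted p = 0.078), although the libraries did not overlap. In RNA of a bulk tissue, fewer cells of a type and less RNA per cell cannot be told apart, here and in the results that follow.

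Interferon-stimulated genes outside the list of GTPases above followed, with 16 of 33 higher in NZO/HlLtJ, 2 lower and a median log2 fold change of 0.83. Mx2, a dynamin-like GTPase, was counted with these genes and not in the list above. Oas2, which makes the second messenger that activates RNase L, stood at 15.2, 14.5, 10.9 and 12.3 CPM in NZO/HlLtJ, against 3.45, 0.945, 1.04 and 0.924 CPM in CAST/EiJ. Oasl2, an antiviral relative of it, stood at 55.7, 57.2, 51.1 and 49.7 CPM in NZO/HlLtJ, against 17.7, 4.57, 5.22 and 5.97 CPM in CAST/EiJ. Ifit2, which limits the translation of viral RNA, stood at 15.7, 19.1, 13.6 and 12.4 CPM in NZO/HlLtJ, against 4.74, 1.58, 1.91 and 1.3 CPM in CAST/EiJ. All 3 were higher in every NZO/HlLtJ library, and CAST/EiJ replicate 1 was the highest of its group each time. The log2 fold changes were 3.04 ± 0.61 for Oas2 (edgeR adjusted p = 0.000665), 2.67 ± 0.38 for Oasl2 (edgeR adjusted p = 2.27e-05) and 2.66 ± 0.37 for Ifit2 (edgeR adjusted p = 1.24e-05). Ifi44, an interferon-induced protein, was higher by 2.82 ± 0.78 (edgeR adjusted p = 0.00872).

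CAST/EiJ replicate 1 moved several of these values. Ifit1 stood at 10.8, 12.9, 8.05 and 7 CPM in NZO/HlLtJ, against 11.7, 2.41, 2.89 and 2.62 CPM in CAST/EiJ. That library lay inside the NZO/HlLtJ range, and the gene did not pass. For Ifit1, the log2 fold change was 0.98 ± 0.49 (edgeR adjusted p = 0.129). Ifit3 stood at 6, 11, 4.47 and 4.43 CPM in NZO/HlLtJ, against 8.44, 1.01, 1.51 and 1.7 CPM in CAST/EiJ, and did not pass either. Ifit3 had a log2 fold change of 1.02 ± 0.59 (edgeR adjusted p = 0.194). Without CAST/EiJ replicate 1, Ifit1 differed by 1.87 (edgeR adjusted p = 0.00254) and Ifit3 by 2.19 (edgeR adjusted p = 0.00424), while Oas2, Oasl2 and Ifi44 reached 3.77, 3.34 and 4.34 on the log2 scale. The number of list members higher in NZO/HlLtJ was then 23 of 33, against 16 with all libraries. The list score is a library's median over the members of their log2 levels, each relative to that gene's mean over the 8 libraries. This score was 0.65, 0.89, 0.36 and 0.22 in NZO/HlLtJ and 0.45, -0.56, -1.04 and -0.97 in CAST/EiJ. CAST/EiJ replicate 1 also had the highest adipocyte marker sum, and the part of that tissue in its interferon genes was not tested.

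**Figure D2:**
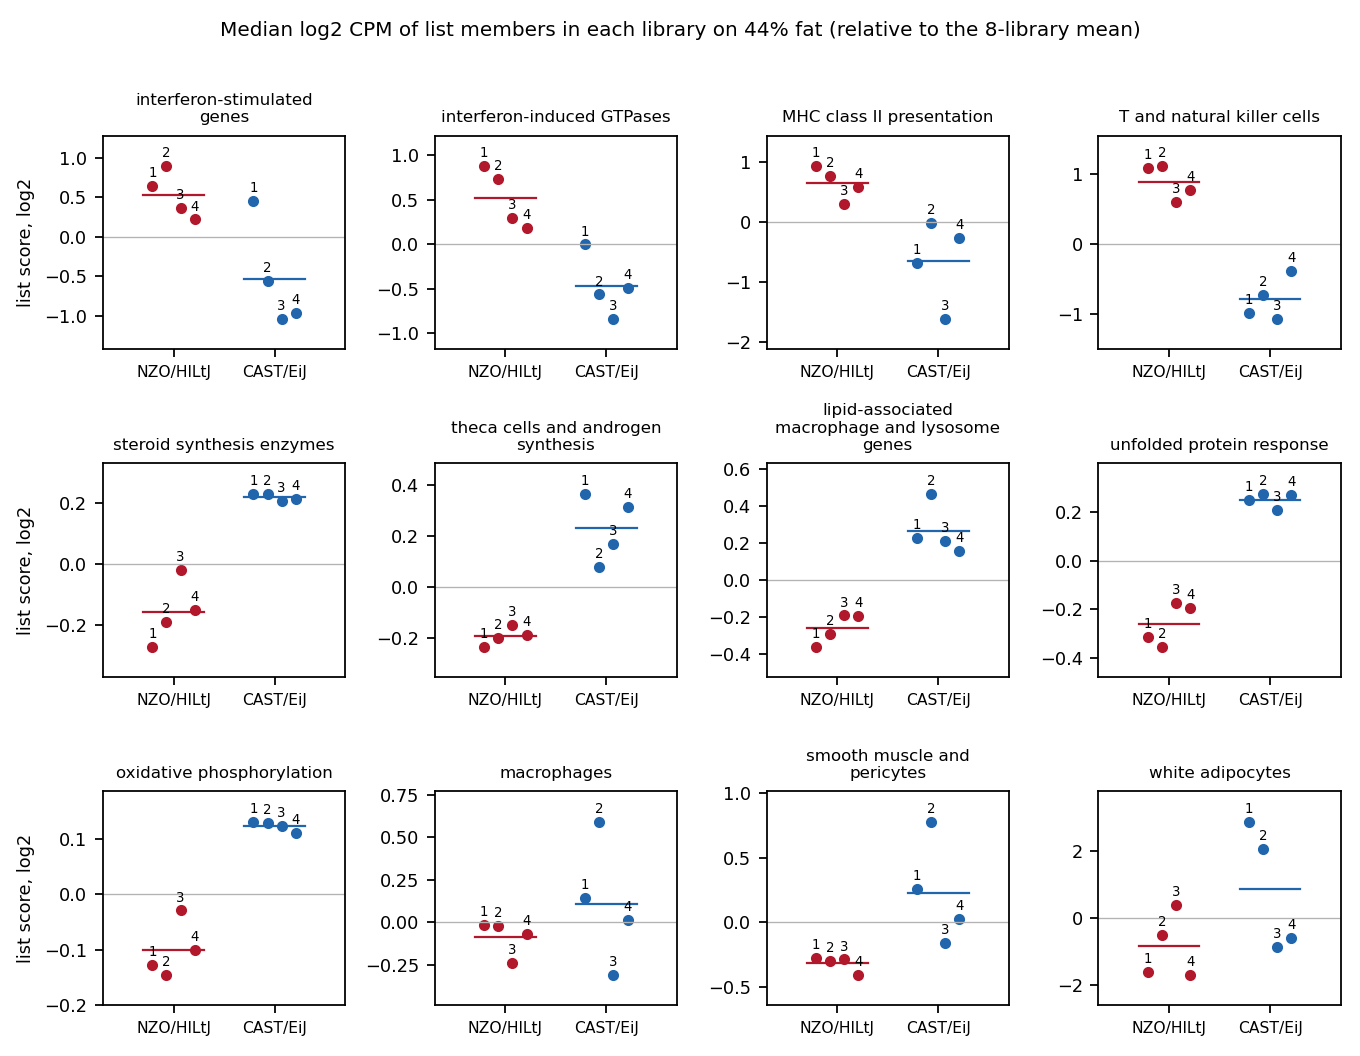
Scores of 12 gene lists in the 8 libraries on 44% fat, NZO/HlLtJ left of CAST/EiJ, with replicate numbers beside the points. A score is a library's median over a list's genes of the log2 level, relative to each gene's mean over the 8 libraries. T and natural killer cell scores lie between 0.6 and 1.11 in NZO/HlLtJ and between -1.07 and -0.39 in CAST/EiJ. Scores of interferon-stimulated genes overlap through CAST/EiJ replicate 1, whereas those of interferon-induced GTPases do not overlap. Adipocyte scores are highest in CAST/EiJ replicates 1 and 2.

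2 interferon-stimulated genes were lower in NZO/HlLtJ. Mx2, an antiviral dynamin-like GTPase, stood at 0.0606, 0.0577, 0.0286 and 0.0887 CPM in NZO/HlLtJ, against 84.5, 23.4, 18.6 and 22.9 CPM in CAST/EiJ. NZO/HlLtJ libraries were near 0, and the difference was the largest of the list (log2 fold change -9.19 ± 0.60, edgeR adjusted p = 4.67e-10), or -8.41 without CAST/EiJ replicate 1, which was the highest library. C57BL/6J lay between, at 4.59 to 5.31 CPM. Trim12c, of a family of antiviral ring-finger proteins, stood at 31.7, 30.1, 26.7 and 27.9 CPM in NZO/HlLtJ, against 43.4, 35.6, 35.1 and 35.8 CPM in CAST/EiJ. The difference in Trim12c was -0.36 ± 0.11 on the log2 scale (edgeR adjusted p = 0.0178). Its neighbours on chromosome 7 were higher in NZO/HlLtJ: Trim30d by 3.25 (edgeR adjusted p = 2.08e-05), Trim34b by 2.54 (edgeR adjusted p = 3.14e-06), Trim12a by 2.28 (edgeR adjusted p = 1.67e-05), Trim5 by 1.40 (edgeR adjusted p = 2.07e-06) and Trim34a by 1.17 (edgeR adjusted p = 9.72e-08). These are close paralogs, among which reads may be split. Without CAST/EiJ replicate 1 Trim12c no longer passed (adjusted p = 0.0721), nor without NZO/HlLtJ replicate 3 or 4 (0.0545 and 0.0519), and Trim30d moved to 4.10.

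MHC class II genes were higher in NZO/HlLtJ for 9 of 12 tested, 1 was lower, and the median log2 fold change was 1.16. H2-Eb1, the beta chain of the class II molecule I-E, stood at 94, 73, 52.8 and 67.2 CPM in NZO/HlLtJ, against 17.7, 27, 9.56 and 22.8 CPM in CAST/EiJ. The strains did not overlap, CAST/EiJ replicate 3 was lowest, and the difference was 1.90 ± 0.32 on the log2 scale (edgeR adjusted p = 0.000117). H2-Ea-ps, the alpha chain of I-E, which is listed as a pseudogene because C57BL/6J does not make it, stood at 34.3, 28, 19.3 and 23.4 CPM in NZO/HlLtJ, against 7.2, 13.5, 3.25 and 9.17 CPM in CAST/EiJ (log2 fold change 1.67 ± 0.38, edgeR adjusted p = 0.00337), while every C57BL/6J library had 0. H2-Ob, which tempers peptide loading in B cells, was higher by 2.41 ± 0.46 (edgeR adjusted p = 0.000432). H2-DMb1, a peptide-loading chaperone, had 3.61 to 6.27 CPM in NZO/HlLtJ, against 2.72 to 7.19 CPM in CAST/EiJ, and did not pass. For H2-DMb1, the log2 fold change was -0.18 ± 0.26 (edgeR adjusted p = 0.624). The member that fell was Ctss, a lysosomal protease of macrophages, at 36.7, 45.3, 52.3 and 38.9 CPM in NZO/HlLtJ, against 55, 173, 56.8 and 89.6 CPM in CAST/EiJ (log2 fold change -1.11 ± 0.32, edgeR adjusted p = 0.0102), and without CAST/EiJ replicate 2, its highest library, it no longer passed (-0.63, adjusted p = 0.0791).

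Of 22 genes of MHC class I presentation, 10 were higher in NZO/HlLtJ, 1 was lower, and the median was 0.483. H2-T22, a non-classical class I molecule, stood at 60.2, 50.1, 55.8 and 49.9 CPM in NZO/HlLtJ, against 16.8, 12.8, 11.1 and 12.6 CPM in CAST/EiJ. H2-T22 had a log2 fold change of 2.02 ± 0.15 (edgeR adjusted p = 1.97e-09). H2-D1, a classical class I heavy chain, stood at 115, 81.5, 88.2 and 83.5 CPM in NZO/HlLtJ, against 28.4, 39.5, 22.6 and 27.2 CPM in CAST/EiJ. The difference in H2-D1 was 1.65 ± 0.24 on the log2 scale (edgeR adjusted p = 2.23e-05). H2-Q10, a secreted class I molecule, had 3.29 to 11.8 CPM in NZO/HlLtJ, against 0.168 to 0.316 CPM in CAST/EiJ. For H2-Q10, the log2 fold change was 4.99 ± 0.46 (edgeR adjusted p = 5.5e-08). Neither strain reached the other in these 3 genes. Nlrc5, the transcriptional activator of class I genes, was at 9.14 to 18.7 CPM in NZO/HlLtJ, against 2.5 to 5.64 CPM in CAST/EiJ. Nlrc5 had a log2 fold change of 1.56 ± 0.26 (edgeR adjusted p = 9.41e-05). H2-K1, the other classical heavy chain, was at 66 to 108 CPM in NZO/HlLtJ, against 55 to 63.7 CPM in CAST/EiJ, and did not pass (log2 fold change 0.44 ± 0.21, edgeR adjusted p = 0.108), nor did H2-T23, the ligand of inhibitory natural killer receptors. The difference in H2-T23 was 0.33 ± 0.24 on the log2 scale (edgeR adjusted p = 0.303). Erap1, which trims peptides for class I, was lower by 0.25 (edgeR adjusted p = 0.0474), a call lost without any 1 of 6 libraries, up to an adjusted p of 0.201 without NZO/HlLtJ replicate 4. H2 genes are polymorphic and near-identical to one another, so their split of reads is uncertain.

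Markers of T and natural killer cells were higher in NZO/HlLtJ for 12 of 20 tested and lower for 0, with a median log2 fold change of 1.95, and their summed level was 34.3 to 42.3 CPM in NZO/HlLtJ, against 14.4 to 17.3 CPM in CAST/EiJ. Ncr1, an activating receptor of natural killer cells, stood at 1.7, 1.73, 1.12 and 0.975 CPM in NZO/HlLtJ, against 0.17, 0, 0 and 0.025 CPM in CAST/EiJ. Gzma, a granzyme of cytotoxic cells, stood at 1.03, 0.779, 0.602 and 0.576 CPM in NZO/HlLtJ, against 0.073, 0.0305, 0 and 0.025 CPM in CAST/EiJ. Both were low but did not overlap, with log2 fold changes of 4.65 ± 0.63 for Ncr1 (edgeR adjusted p = 1.02e-05) and 4.37 ± 0.71 for Gzma (edgeR adjusted p = 8.2e-05). Without CAST/EiJ replicate 1 these were 6.81 and 5.11. The coreceptors of T cell subsets did not follow: Cd4 stood at 4.03, 3.52, 3.18 and 4.74 CPM in NZO/HlLtJ, against 1.46, 5.12, 1.21 and 2.42 CPM in CAST/EiJ. For Cd4, the log2 fold change was 0.60 ± 0.35 (edgeR adjusted p = 0.19). Cd8a had 0.143 to 0.333 CPM in NZO/HlLtJ, against 0.122 to 0.774 CPM in CAST/EiJ. Cd8a had a log2 fold change of -0.80 ± 0.72 (edgeR adjusted p = 0.421). CAST/EiJ replicate 2 was the highest library for Cd4, and without it Cd4 was higher in NZO/HlLtJ by 1.19 (edgeR adjusted p = 0.00475). Of 13 B and plasma cell markers 5 rose and 1 fell. Cd79b, the signalling chain of the B cell receptor, had 0.75 to 0.97 CPM in NZO/HlLtJ, against 0.061 to 0.365 CPM in CAST/EiJ. The difference in Cd79b was 2.18 ± 0.41 on the log2 scale (edgeR adjusted p = 0.000309).

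The Ifi200 family and inflammasome genes, sensors of cytosolic DNA and danger, did not move 1 way: 5 of 26 rose, 10 fell and the median was -0.371. The number that fell was 6 without CAST/EiJ replicate 1 and 4 without CAST/EiJ replicates 1 and 2 together. Ifi202b (chr1:173962568-173982744), a DNA-binding inhibitor of the inflammasome sensor Aim2, stood at 19.4, 20.8, 13.4 and 12.2 CPM in NZO/HlLtJ, against 0.632, 0.305, 0.393 and 0.375 CPM in CAST/EiJ (log2 fold change 5.25 ± 0.53, edgeR adjusted p = 2.81e-07), with C57BL/6J at 0.194 to 1.78 CPM. Its neighbours fell, with log2 fold changes of -1.07 for Ifi204 (edgeR adjusted p = 0.0139) and -0.44 for Ifi203 (edgeR adjusted p = 0.0388). Without CAST/EiJ replicate 1 neither passed (adjusted p = 0.0867 for Ifi204 and 0.126 for Ifi203), and Ifi203 was also lost without any 1 of 5 other libraries. Mndal, of the same family, stood at 0.0909, 0.115, 0.201 and 0.155 CPM in NZO/HlLtJ, against 29.8, 22.6, 20.9 and 29.8 CPM in CAST/EiJ (log2 fold change -7.47 ± 0.29, edgeR adjusted p = 6.87e-14), with C57BL/6J at 32.5 to 39.2 CPM. Of the inflammasome sensors, Nlrp1a had no count in NZO/HlLtJ, against 5.01, 7.22, 3.87 and 6.02 CPM in CAST/EiJ libraries, at least 270-fold lower (edgeR adjusted p = 2.17e-09). Nlrp1b, next to it on chromosome 11, was higher, at 1.06 to 1.46 CPM in NZO/HlLtJ, against 0.14 to 0.335 CPM in CAST/EiJ (log2 fold change 2.48 ± 0.30, edgeR adjusted p = 2.66e-06), and reads of these paralogs may be split.

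**Figure D3:**
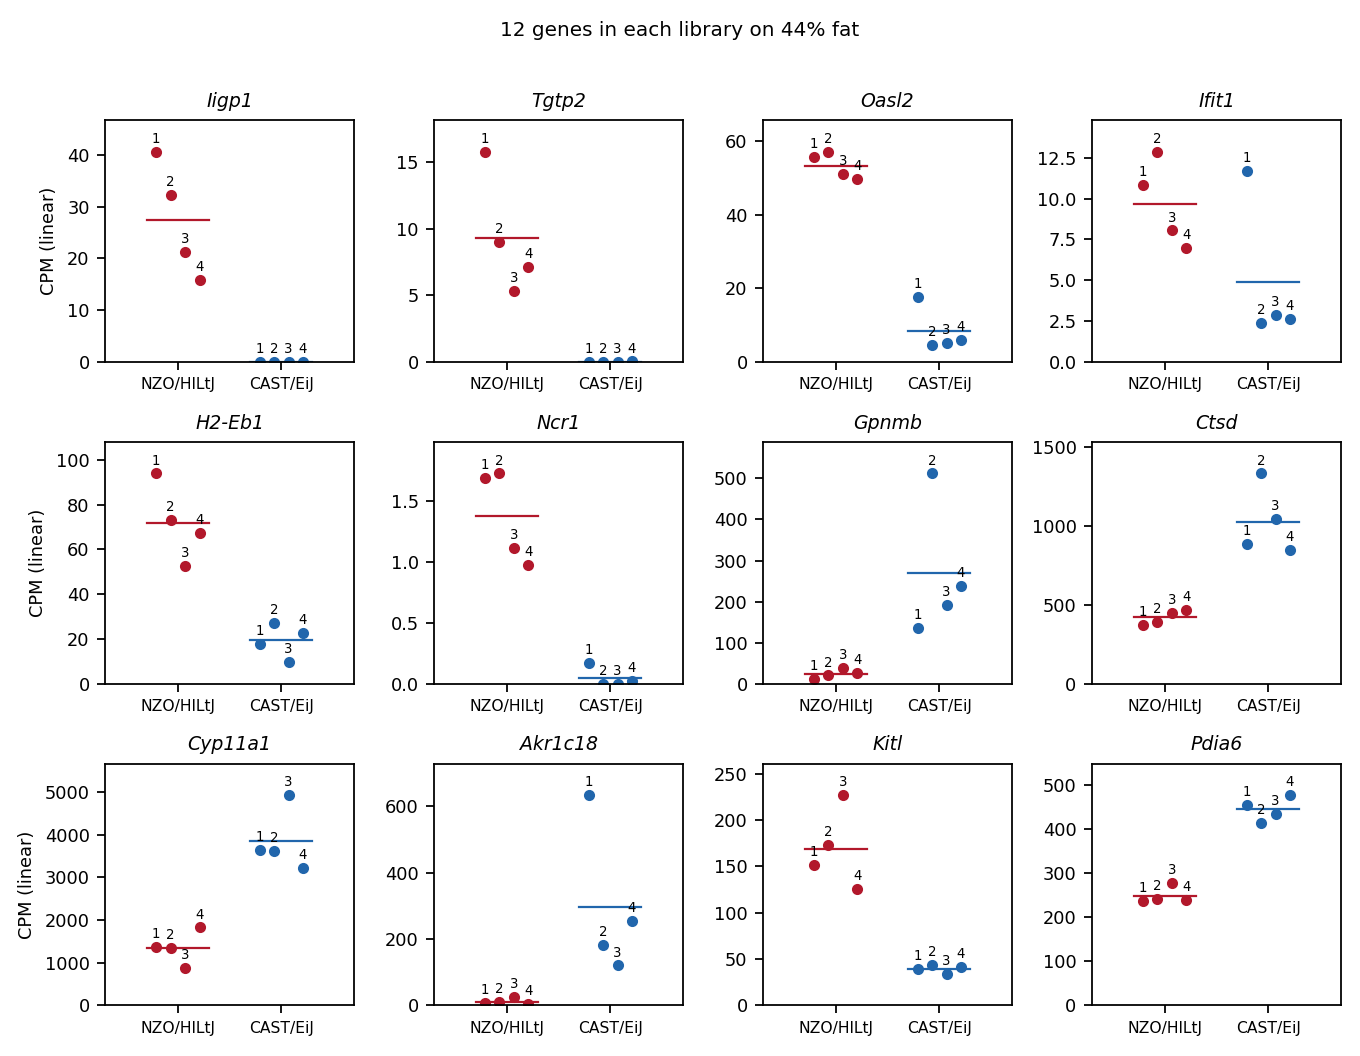
Levels (CPM, linear axis from 0) of 12 genes in the 8 libraries on 44% fat, NZO/HlLtJ left of CAST/EiJ, with a line at each mean. Iigp1 and Tgtp2 lie at or near 0 in CAST/EiJ, Ifit1 overlaps through 1 CAST/EiJ library at 11.7 CPM, and Gpnmb, Ctsd, Cyp11a1, Akr1c18 and Pdia6 are lower in every NZO/HlLtJ library.

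Lipid-associated macrophage and lysosome genes were lower in NZO/HlLtJ for 14 of 25 tested and higher for 0, with a median log2 fold change of -0.496. Gpnmb, a transmembrane glycoprotein of lipid-laden macrophages, stood at 11.4, 19.7, 37 and 25.5 CPM in NZO/HlLtJ, against 135, 512, 192 and 239 CPM in CAST/EiJ. Ctsd, the lysosomal protease cathepsin D, stood at 372, 393, 450.4 and 468 CPM in NZO/HlLtJ, against 888, 1333, 1044 and 846 CPM in CAST/EiJ. Lgals3, a galectin of phagocytes, stood at 8.76, 10.6, 18.8 and 14.6 CPM in NZO/HlLtJ, against 41.4, 58.7, 48 and 23.8 CPM in CAST/EiJ. No NZO/HlLtJ library reached a CAST/EiJ library in any of the 3, and CAST/EiJ replicate 2 was highest each time. The log2 fold changes were -3.52 ± 0.56 for Gpnmb (edgeR adjusted p = 7.34e-05), -1.29 ± 0.14 for Ctsd (edgeR adjusted p = 8.02e-07) and -1.70 ± 0.41 for Lgals3 (edgeR adjusted p = 0.00308). Lpl, a lipase that macrophages share with adipocytes, had 96.6, 114, 114 and 84.4 CPM in NZO/HlLtJ, against 209.9, 114, 47.5 and 50.1 CPM in CAST/EiJ, and did not pass. For Lpl, the log2 fold change was -0.04 ± 0.59 (edgeR adjusted p = 0.966). Leaving out 1 library left 12 to 15 members lower, and leaving out CAST/EiJ replicates 1 and 2 together left 11.

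General macrophage markers were divided, with 2 of 18 higher, 6 lower and a median of -0.374. Lyz2, lysozyme, stood at 111, 158, 188 and 155 CPM in NZO/HlLtJ, against 361, 1324, 455 and 659 CPM in CAST/EiJ. Lyz2 had a log2 fold change of -2.19 ± 0.35 (edgeR adjusted p = 6.23e-05). Cd68, a lysosomal protein of macrophages, had 14.5 to 18.2 CPM in NZO/HlLtJ, against 27.9 to 67 CPM in CAST/EiJ. The difference in Cd68 was -1.38 ± 0.25 on the log2 scale (edgeR adjusted p = 0.000293). C1qa, a complement C1 chain made by macrophages, had 31.4 to 34.1 CPM in NZO/HlLtJ, against 44.2 to 89.4 CPM in CAST/EiJ. For C1qa, the log2 fold change was -0.82 ± 0.20 (edgeR adjusted p = 0.00338). In contrast, Adgre1, the F4/80 antigen, had 13.6 to 19.4 CPM in NZO/HlLtJ, against 9.82 to 14.8 CPM in CAST/EiJ, and did not pass. Adgre1 had a log2 fold change of 0.40 ± 0.24 (edgeR adjusted p = 0.223). Csf1r, the receptor for macrophage colony-stimulating factor, had 50.9 to 71.7 CPM in NZO/HlLtJ, against 44.7 to 90.2 CPM in CAST/EiJ, and did not pass. The difference in Csf1r was -0.05 ± 0.18 on the log2 scale (edgeR adjusted p = 0.859). Without CAST/EiJ replicates 1 and 2 together, 2 macrophage markers were lower, 4 were higher (4 also without either of them alone) and C1qa was no longer among the calls (adjusted p = 0.0765). Ms4a7, a membrane protein of tissue macrophages, was higher, at 8.52, 10.6, 9.14 and 9.69 CPM in NZO/HlLtJ, against 0.414, 0.396, 0.112 and 0.774 CPM in CAST/EiJ. For Ms4a7, the log2 fold change was 4.46 ± 0.37 (edgeR adjusted p = 1.05e-08). Its neighbours in the Ms4a cluster on chromosome 19 fell, with log2 fold changes of -1.41 for Ms4a6c (edgeR adjusted p = 3.26e-05), -1.53 for Ms4a6d (edgeR adjusted p = 0.000711) and -5.45 for Ms4a8a (edgeR adjusted p = 5.11e-05), with Ms4a8a at -6.12 without NZO/HlLtJ replicate 4.

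Among 43 chemokines and cytokine receptors, 9 rose (20.9%) and 5 fell (11.6%), against 17% and 17.4% over all genes. The number that fell was 3 without NZO/HlLtJ replicate 1, without CAST/EiJ replicate 2 or without CAST/EiJ replicates 1 and 2 together. Ccl9, a chemokine of myeloid cells, stood at 1.94, 1.9, 3.15 and 2.31 CPM in NZO/HlLtJ, against 13.7, 34.2, 14.8 and 15.3 CPM in CAST/EiJ. Ccl9 had a log2 fold change of -3.06 ± 0.48 (edgeR adjusted p = 5.53e-05). Ccl5, a chemokine of cytotoxic lymphocytes on the same chromosome, had 0.465 to 1.27 CPM in NZO/HlLtJ, against 0 to 0.122 CPM in CAST/EiJ. The difference in Ccl5 was 3.08 ± 0.69 on the log2 scale (edgeR adjusted p = 0.00161). Ackr1, a chemokine-binding receptor of venular endothelium and red cells, had 0.317 to 0.774 CPM in NZO/HlLtJ, against 2.24 to 15.8 CPM in CAST/EiJ. For Ackr1, the log2 fold change was -4.14 ± 0.78 (edgeR adjusted p = 0.000372). Without CAST/EiJ replicates 1 and 2 together Ackr1 stood at -3.43 and Ccl5 at 3.79 on the log2 scale. Of 33 complement and coagulation genes, 6 rose and 10 fell, or 6 fell without those 2 libraries. C2, a protease of the classical pathway, stood at 87.7, 79.3, 77.2 and 108 CPM in NZO/HlLtJ, against 15.9, 24.6, 18.4 and 11.9 CPM in CAST/EiJ. C2 had a log2 fold change of 2.32 ± 0.30 (edgeR adjusted p = 6.41e-06). C1s1, another protease of it, had 221 to 246 CPM in NZO/HlLtJ, against 95 to 125 CPM in CAST/EiJ. The difference in C1s1 was 1.14 ± 0.12 on the log2 scale (edgeR adjusted p = 2.73e-07). C5ar1, the receptor for the C5a fragment on myeloid cells, had 1.66 to 2.62 CPM in NZO/HlLtJ, against 8.86 to 14.3 CPM in CAST/EiJ. For C5ar1, the log2 fold change was -2.31 ± 0.24 (edgeR adjusted p = 2.89e-07). Strains did not overlap for any of these 6 genes.

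Steroid synthesis enzymes were lower in NZO/HlLtJ for 8 of 23 tested and higher for 0, with a median of -0.25. Cyp11a1 (chr9:58006411-58027023), which converts cholesterol to pregnenolone, stood at 1365, 1344, 871 and 1822 CPM in NZO/HlLtJ, against 3646, 3624, 4923 and 3222 CPM in CAST/EiJ. NZO/HlLtJ replicate 3 was lowest and CAST/EiJ replicate 3 highest, and the strains did not overlap. Cyp11a1 had a log2 fold change of -1.51 ± 0.27 (edgeR adjusted p = 0.000221). Akr1c18, the 20-alpha-hydroxysteroid dehydrogenase that inactivates progesterone, stood at 6.64, 9.58, 24.3 and 4.06 CPM in NZO/HlLtJ, against 634, 182, 120.1 and 255 CPM in CAST/EiJ. It varied widely within each strain but did not overlap (log2 fold change -4.74 ± 1.09, edgeR adjusted p = 0.00226), and the difference was -4.06 without CAST/EiJ replicate 1 and -5.47 without NZO/HlLtJ replicate 3. Hsd3b6, a 3-beta-hydroxysteroid dehydrogenase, had 0.455, 0.375, 0.602 and 0.421 CPM in NZO/HlLtJ, against 4.09, 4.12, 12.1 and 3.07 CPM in CAST/EiJ (log2 fold change -3.65 ± 0.52, edgeR adjusted p = 1.77e-05), or -3.01 without CAST/EiJ replicate 3. Star, which delivers cholesterol to mitochondria, stood at 199, 199.9, 104 and 307 CPM in NZO/HlLtJ, against 762, 268, 1107 and 539.6 CPM in CAST/EiJ, and did not pass (log2 fold change -1.72 ± 0.71, edgeR adjusted p = 0.065), though it did so without CAST/EiJ replicate 2 (-1.99, edgeR adjusted p = 0.0478). Akr1c18 has paralogs beside it on chromosome 13 that were higher, Akr1e1 by 0.33 (edgeR adjusted p = 0.0263) and Akr1c19 by 0.84 (edgeR adjusted p = 0.037), and each of these calls was lost without any 1 of 4 libraries, CAST/EiJ replicate 1 (0.0808 and 0.104) among them.

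Theca and androgen genes were lower for 7 of 16 tested and higher for 2, with a median of -0.462. Insl3, a peptide hormone of theca cells, stood at 2.76, 2.91, 4.64 and 3.86 CPM in NZO/HlLtJ, against 16.4, 15.2, 12.1 and 21.7 CPM in CAST/EiJ. The difference in Insl3 was -2.21 ± 0.41 on the log2 scale (edgeR adjusted p = 0.000294). Gli1, the target of the hedgehog signal that granulosa cells send to theca cells, had 26.3 to 40.4 CPM in NZO/HlLtJ, against 51.8 to 66.7 CPM in CAST/EiJ. For Gli1, the log2 fold change was -0.93 ± 0.23 (edgeR adjusted p = 0.0041). Aldh1a1, a retinaldehyde dehydrogenase, had 892 to 1013 CPM in NZO/HlLtJ, against 1615 to 2098 CPM in CAST/EiJ (log2 fold change -0.98 ± 0.32, edgeR adjusted p = 0.0225), a call that leaving out any 1 of 4 libraries put at adjusted p of 0.0504 to 0.0543. The 2 members that were higher were Fhl2 by 0.575 (edgeR adjusted p = 0.019) and Ogn by 0.774 (edgeR adjusted p = 0.045) on the log2 scale. Cyp17a1, the enzyme that makes androgen, stood at 381, 501, 729 and 568 CPM in NZO/HlLtJ, against 484, 353, 55.5 and 559 CPM in CAST/EiJ. It did not pass. Cyp17a1 had a log2 fold change of 0.59 ± 1.09 (edgeR adjusted p = 0.719). The number of lower theca genes was 4 without NZO/HlLtJ replicate 4, and that of higher ones was 0 to 1 without any 1 of 6 libraries, 0 without NZO/HlLtJ replicate 2. Luteal genes were lower for 6 of 16 and higher for 0, with 3 lower without CAST/EiJ replicate 3 and 2 higher without NZO/HlLtJ replicate 3. Oxtr, the oxytocin receptor, had 50.03 to 105 CPM in NZO/HlLtJ, against 182 to 329 CPM in CAST/EiJ. The difference in Oxtr was -1.64 ± 0.34 on the log2 scale (edgeR adjusted p = 0.000859). It belongs to a list of 21 hormone receptors, of which 3 rose and 6 fell.

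Granulosa and oocyte markers gave counts near or under the background, and a few members differed strongly. Of 18 granulosa genes 2 rose and 2 fell. Kitl, the growth factor by which granulosa cells support the oocyte, stood at 152, 173, 227 and 125 CPM in NZO/HlLtJ, against 39.7, 43.2, 33.7 and 40.9 CPM in CAST/EiJ. Kit, its receptor on oocytes and theca cells, stood at 157, 150.0, 184 and 195 CPM in NZO/HlLtJ, against 65.8, 60.0, 40.1 and 60.5 CPM in CAST/EiJ. Every NZO/HlLtJ library exceeded every CAST/EiJ library for both ligand and receptor, with log2 fold changes of 2.10 ± 0.20 for Kitl (edgeR adjusted p = 1.41e-07) and 1.601 ± 0.28 for Kit (edgeR adjusted p = 0.000182). Amh, the hormone of small growing follicles, stood at 93.2, 83.7, 147 and 105 CPM in NZO/HlLtJ, against 29.3, 27.8, 54.9 and 41.9 CPM in CAST/EiJ. For Amh, the log2 fold change was 1.48 ± 0.28 (edgeR adjusted p = 0.000464). On the lower side stood Ihh, the hedgehog ligand of granulosa cells, at 15.6, 19.1, 20.4 and 28.4 CPM in NZO/HlLtJ, against 83.7, 46.6, 78.1 and 69 CPM in CAST/EiJ. Ihh had a log2 fold change of -1.73 ± 0.41 (edgeR adjusted p = 0.0028). Slc18a2, a vesicular monoamine transporter, was lower too, at 42.2 to 65.6 CPM in NZO/HlLtJ, against 212 to 319 CPM in CAST/EiJ. The difference in Slc18a2 was -2.40 ± 0.31 on the log2 scale (edgeR adjusted p = 6.23e-06). Gdf9 and Fshr did not pass (log2 fold change 0.10 ± 0.25, edgeR adjusted p = 0.794 for Gdf9, and log2 fold change 0.57 ± 0.35, edgeR adjusted p = 0.218 for Fshr).

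Of 27 oocyte genes, 4 rose and 1 fell, and 2 rose without NZO/HlLtJ replicate 3 or CAST/EiJ replicate 1. Zp1, a protein of the zona pellucida, had 30.7, 23.1, 32.4 and 22.7 CPM in NZO/HlLtJ, against 12.5, 19.7, 13.3 and 17.4 CPM in CAST/EiJ (log2 fold change 0.80 ± 0.27, edgeR adjusted p = 0.0291), a call lost without any 1 of 4 libraries, up to an adjusted p of 0.0825 without CAST/EiJ replicate 1. Bmp15, the oocyte growth factor related to Gdf9, had 56.9, 52.1, 56 and 36.8 CPM in NZO/HlLtJ, against 28.1, 38.7, 30.6 and 40.0 CPM in CAST/EiJ, and did not pass. For Bmp15, the log2 fold change was 0.55 ± 0.26 (edgeR adjusted p = 0.111). Oog1, an oocyte-specific leucine-rich repeat protein, was the member that fell: it had 0.121, 0, 0 and 0 CPM in NZO/HlLtJ, against 2.14, 4.12, 2.52 and 3.3 CPM in CAST/EiJ (edgeR adjusted p = 1.35e-06). NZO/HlLtJ replicate 1 was the only library of its strain above 0, and the fitted log2 fold change was -6.62 with it and -9.89 without it.

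Unfolded protein response genes were lower in NZO/HlLtJ for 15 of 25 tested and higher for 0, with a median log2 fold change of -0.563. Creld2, whose promoter is shown above, stood at 31.3, 33, 37 and 41.1 CPM in NZO/HlLtJ, against 62.4, 67, 76.3 and 72.9 CPM in CAST/EiJ. Pdia6, a protein disulfide isomerase, stood at 237, 240.3, 277 and 238 CPM in NZO/HlLtJ, against 453, 413, 434 and 476 CPM in CAST/EiJ. Sdf2l1, a partner of the chaperone BiP, stood at 14.9, 13.5, 18.7 and 16.4 CPM in NZO/HlLtJ, against 29.7, 32.2, 37.8 and 34.4 CPM in CAST/EiJ. All 3 were lower in every NZO/HlLtJ library, with log2 fold changes of -0.97 ± 0.21 for Creld2 (edgeR adjusted p = 0.00138), -0.84 ± 0.13 for Pdia6 (edgeR adjusted p = 5.89e-05) and -1.08 ± 0.19 for Sdf2l1 (edgeR adjusted p = 0.000196). Pdia4, another disulfide isomerase, had 245, 242, 272 and 268 CPM in NZO/HlLtJ, against 770.5, 384, 429.9 and 424 CPM in CAST/EiJ (log2 fold change -0.97 ± 0.25, edgeR adjusted p = 0.00472), with CAST/EiJ replicate 1 highest. Canx, the membrane chaperone calnexin, had 544 to 624 CPM in NZO/HlLtJ, against 649.8 to 746 CPM in CAST/EiJ, and did not pass. Canx had a log2 fold change of -0.20 ± 0.08 (edgeR adjusted p = 0.0643). The score of the list was -0.354 to -0.175 in NZO/HlLtJ and 0.207 to 0.273 in CAST/EiJ, and leaving out 1 library left 13 to 17 members lower. Hsp90ab1, a cytosolic chaperone outside the list with one of the largest differences in CPM, stood at 1906, 1946, 1960.0 and 2147 CPM in NZO/HlLtJ, against 2563, 3361, 3683 and 3502 CPM in CAST/EiJ. The difference in Hsp90ab1 was -0.72 ± 0.12 on the log2 scale (edgeR adjusted p = 6.94e-05).

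Oxidative phosphorylation genes were lower for 14 of 31 tested and higher for 1, with a median of -0.238. mt-Nd2, a mitochondrially encoded subunit of complex I, stood at 1596, 1710.0, 1503 and 1117 CPM in NZO/HlLtJ, against 3827, 3874, 3594 and 3717 CPM in CAST/EiJ. For mt-Nd2, the log2 fold change was -1.34 ± 0.11 (edgeR adjusted p = 7.85e-09). mt-Atp6, of the ATP synthase, stood at 1404, 1390.0, 1355 and 1008 CPM in NZO/HlLtJ, against 2507, 2728, 2303 and 2283 CPM in CAST/EiJ. mt-Atp6 had a log2 fold change of -0.93 ± 0.11 (edgeR adjusted p = 2.18e-06). mt-Cytb, of complex III, stood at 4472, 4527, 4866 and 3926 CPM in NZO/HlLtJ, against 6744, 6757, 6197 and 5848 CPM in CAST/EiJ. The difference in mt-Cytb was -0.52 ± 0.09 on the log2 scale (edgeR adjusted p = 8.66e-05). The strains did not overlap for these 3. mt-Nd1, mt-Co3 and mt-Nd4 were lower by smaller amounts, with log2 fold changes of -0.45 (edgeR adjusted p = 0.00251), -0.41 (edgeR adjusted p = 0.00409) and -0.36 (edgeR adjusted p = 0.0178), and mt-Nd4 was lost without CAST/EiJ replicate 2 (0.051) or NZO/HlLtJ replicate 4 (0.0814). The member that rose was mt-Co2, whose reads are treated with its nuclear copy below. Of the nuclear genes, Cox7a1, the muscle form of a complex IV subunit, had 0.697, 0.894, 2.09 and 1.22 CPM in NZO/HlLtJ, against 8.27, 16.6, 4.32 and 10.5 CPM in CAST/EiJ. For Cox7a1, the log2 fold change was -3.01 ± 0.54 (edgeR adjusted p = 0.000231). The median log2 fold change of the smooth muscle list was -0.685, and the part of muscle RNA in Cox7a1 was not tested. Without CAST/EiJ replicates 1 and 2 together 6 members were lower.

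Of 44 genes of NADPH, glutathione and thioredoxin metabolism, 15 were lower and 3 higher, and 9 were lower without CAST/EiJ replicates 1 and 2 together. Gstm2, a mu-class glutathione transferase, stood at 101, 99.9, 202 and 101 CPM in NZO/HlLtJ, against 838, 1666, 924 and 1108 CPM in CAST/EiJ. Gstm2 had a log2 fold change of -3.17 ± 0.39 (edgeR adjusted p = 3.87e-06). Gstm1 beside it had 314 to 601 CPM in NZO/HlLtJ, against 907 to 1705 CPM in CAST/EiJ. The difference in Gstm1 was -1.57 ± 0.29 on the log2 scale (edgeR adjusted p = 0.00038). Gstm7 had 54 to 82.7 CPM in NZO/HlLtJ, against 88.1 to 139 CPM in CAST/EiJ. For Gstm7, the log2 fold change was -0.85 ± 0.24 (edgeR adjusted p = 0.00822). Without CAST/EiJ replicates 1 and 2 together Gstm7 no longer passed (adjusted p = 0.0834). Gstm4 in the same cluster on chromosome 3 was higher, at 14.5 to 20.5 CPM in NZO/HlLtJ, against 7.6 to 8.56 CPM in CAST/EiJ. Gstm4 had a log2 fold change of 1.07 ± 0.16 (edgeR adjusted p = 2.69e-05). NZO/HlLtJ replicate 3 was the highest library of its strain in all 4 genes, and no strain overlapped the other. These transferases are close paralogs, so the division of reads among them is uncertain.

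Extracellular matrix genes fell for 13 of 38 tested and rose for 4, or for 2 without CAST/EiJ replicate 3. Mmp2, a gelatinase, stood at 134, 142, 139 and 152 CPM in NZO/HlLtJ, against 557, 332, 611 and 329 CPM in CAST/EiJ. The difference in Mmp2 was -1.69 ± 0.23 on the log2 scale (edgeR adjusted p = 1.26e-05). Fn1, fibronectin, had 226, 215, 150.1 and 246 CPM in NZO/HlLtJ, against 735, 696, 571 and 535 CPM in CAST/EiJ. For Fn1, the log2 fold change was -1.60 ± 0.22 (edgeR adjusted p = 1.32e-05). Fbln1, fibulin 1, was higher, at 127 to 179 CPM in NZO/HlLtJ, against 97.7 to 118 CPM in CAST/EiJ. Fbln1 had a log2 fold change of 0.56 ± 0.11 (edgeR adjusted p = 0.000662). Col1a1, the main fibrillar collagen chain, had 439 to 481 CPM in NZO/HlLtJ, against 626 to 823 CPM in CAST/EiJ, and did not pass (log2 fold change -0.57 ± 0.23, edgeR adjusted p = 0.0569), although the strains did not overlap. Smooth muscle and pericyte markers fell for 9 of 14 and rose for 1. Myh11, smooth muscle myosin, had 268, 259, 270.1 and 215 CPM in NZO/HlLtJ, against 461, 877, 288 and 463 CPM in CAST/EiJ. The difference in Myh11 was -1.05 ± 0.24 on the log2 scale (edgeR adjusted p = 0.00197). CAST/EiJ replicate 2 was the highest, and without it 4 of the 14 markers were lower, with 5 lower without NZO/HlLtJ replicate 4. Without CAST/EiJ replicates 1 and 2 together, 5 matrix genes and 3 smooth muscle markers were lower, and Myh11 no longer passed (adjusted p = 0.0562). Over all genes, 4874 passed under that setting, against 6959 with all libraries. Of 17 endothelial markers 3 rose and 3 fell (17.6% each), near the 17% and 17.4% over all genes. The number that rose was 5 without CAST/EiJ replicate 2. Vwf, von Willebrand factor, had 12 to 20.1 CPM in NZO/HlLtJ, against 53.5 to 66.5 CPM in CAST/EiJ. For Vwf, the log2 fold change was -1.99 ± 0.20 (edgeR adjusted p = 1.53e-07).

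Genes of fatty acid oxidation and of fatty acid synthesis were lower more often than higher (30% and 24% lower, against 17.4% over all genes). Cholesterol genes lay near the background. Of 30 fatty acid oxidation genes 9 fell and 2 rose. Pdk4, the kinase that shuts off pyruvate oxidation when fat is burned, stood at 29, 33.4, 34.1 and 30.0 CPM in NZO/HlLtJ, against 228, 94.8, 197 and 126 CPM in CAST/EiJ. Pdk4 had a log2 fold change of -2.35 ± 0.35 (edgeR adjusted p = 3.34e-05). Acad12, an acyl-CoA dehydrogenase family member, had 13.5 to 18.9 CPM in NZO/HlLtJ, against 40.9 to 47.5 CPM in CAST/EiJ. The difference in Acad12 was -1.46 ± 0.10 on the log2 scale (edgeR adjusted p = 1.02e-09). Of 25 genes of fatty acid synthesis and lipid droplets 6 fell and 0 rose, with a median of -0.493, and 3 fell without NZO/HlLtJ replicate 1 or 3 or without CAST/EiJ replicates 1 and 2 together. The score of the list was -0.337 to -0.0683 in NZO/HlLtJ and 0.0202 to 0.284 in CAST/EiJ. Acaca, acetyl-CoA carboxylase, had 126, 126, 102 and 131 CPM in NZO/HlLtJ, against 231, 329.6, 216 and 233 CPM in CAST/EiJ. For Acaca, the log2 fold change was -1.06 ± 0.21 (edgeR adjusted p = 0.000517). Plin2, a coat protein of lipid droplets, had 71.8 to 108 CPM in NZO/HlLtJ, against 135 to 176 CPM in CAST/EiJ. Plin2 had a log2 fold change of -0.85 ± 0.18 (edgeR adjusted p = 0.00109). Of 28 cholesterol genes 4 rose (14.3%) and 6 fell (21.4%), against 17% and 17.4% over all genes, with a median of 0.0514. Sc5d, a late enzyme of cholesterol synthesis, had 57.3, 78.6, 50.9 and 50.3 CPM in NZO/HlLtJ, against 199.5, 479, 159 and 249 CPM in CAST/EiJ (log2 fold change -2.20 ± 0.29, edgeR adjusted p = 8.45e-06). Abcg1, which exports cholesterol, had 16 to 18.9 CPM in NZO/HlLtJ, against 29.8 to 57.3 CPM in CAST/EiJ. The difference in Abcg1 was -1.12 ± 0.19 on the log2 scale (edgeR adjusted p = 0.000156). Stard4, which carries cholesterol in the cytosol, was higher at 61.1 to 86.5 CPM in NZO/HlLtJ, against 27.4 to 34.1 CPM in CAST/EiJ. For Stard4, the log2 fold change was 1.30 ± 0.15 (edgeR adjusted p = 8.69e-07).

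Of 32 insulin and leptin signalling genes 6 rose (18.8%) and 8 fell (25%), against 17% and 17.4% over all genes, with a median of -0.0156. Igfbp5, a binding protein of insulin-like growth factors, stood at 1020.0, 1073, 1162 and 1061 CPM in NZO/HlLtJ, against 401, 303, 415 and 406 CPM in CAST/EiJ (log2 fold change 1.5003 ± 0.17, edgeR adjusted p = 9.17e-07), and its neighbour Igfbp2 at 20.9, 17.1, 45.5 and 25.5 CPM in NZO/HlLtJ, against 112, 178, 123 and 109 CPM in CAST/EiJ. Igfbp2 had a log2 fold change of -2.26 ± 0.34 (edgeR adjusted p = 3.88e-05). Lepr, the leptin receptor, had 56 to 87.2 CPM in NZO/HlLtJ, against 99.2 to 117 CPM in CAST/EiJ. The difference in Lepr was -0.62 ± 0.18 on the log2 scale (edgeR adjusted p = 0.0104). Akt1, a kinase of the insulin pathway, had 197 to 239 CPM in NZO/HlLtJ, against 257 to 297 CPM in CAST/EiJ. For Akt1, the log2 fold change was -0.36 ± 0.08 (edgeR adjusted p = 0.0016). None of these 4 genes overlapped between strains. Of 10 obesity and diabetes candidates mapped in NZO crosses 2 rose and 5 fell, and 3 fell without any 1 of 6 libraries (any of NZO/HlLtJ, CAST/EiJ replicate 1 or 2) and 2 without CAST/EiJ replicates 1 and 2 together. Beside Lepr and Abcg1, those that fell, named after their values were seen, were Tbc1d1, Hsd11b1 and Lefty1. Tbc1d1, a regulator of glucose transporter traffic, averaged 37.5 CPM in NZO/HlLtJ and 54.4 CPM in CAST/EiJ (log2 fold change -0.54, edgeR adjusted p = 0.000122). Hsd11b1, which activates glucocorticoids, averaged 0.505 CPM in NZO/HlLtJ and 2.9 CPM in CAST/EiJ (log2 fold change -2.52, edgeR adjusted p = 0.0425). Lefty1 was near 0 in both strains, at 0.00554 CPM in NZO/HlLtJ and 0.0946 CPM in CAST/EiJ (edgeR adjusted p = 0.0488). Nmur2, a neuromedin U receptor, had 0.636 to 1.83 CPM in NZO/HlLtJ, against 0.122 to 0.375 CPM in CAST/EiJ. Nmur2 had a log2 fold change of 2.64 ± 0.51 (edgeR adjusted p = 0.000483). Zfp69, a zinc finger protein, had 2.68 to 3.17 CPM in NZO/HlLtJ, against 2.68 to 5.3 CPM in CAST/EiJ, and did not pass. The difference in Zfp69 was -0.33 ± 0.21 on the log2 scale (edgeR adjusted p = 0.247).

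White adipocyte markers were lower for 4 of 16, with a median of -2.2, and Adipoq and Cfd were high in CAST/EiJ replicates 1 and 2. Adipoq, adiponectin, stood at 0.0606, 0.375, 2.95 and 0.0665 CPM in NZO/HlLtJ, against 38.6, 15.6, 0.028 and 0.275 CPM in CAST/EiJ, and did not pass. For Adipoq, the log2 fold change was -4.00 ± 1.88 (edgeR adjusted p = 0.107). Cfd, the adipocyte complement factor adipsin, stood at 0, 0.202, 1.66 and 0.0222 CPM in NZO/HlLtJ, against 121, 49.8, 0.224 and 0.749 CPM in CAST/EiJ. Cfd had a log2 fold change of -6.54 ± 2.13 (edgeR adjusted p = 0.0225). CAST/EiJ replicates 3 and 4 lay within or near the NZO/HlLtJ range for both genes. The call for Cfd was lost without any 1 of 4 libraries, CAST/EiJ replicate 1 among them (-5.19, adjusted p = 0.0651), and its difference was -0.11 without CAST/EiJ replicates 1 and 2 together (adjusted p = 0.982) and -9.17 without NZO/HlLtJ replicate 3. Plin1, the lipid droplet coat of adipocytes and steroid-making cells, had 46.1, 41.2, 40.6 and 53.4 CPM in NZO/HlLtJ, against 99.8, 99.6, 41.2 and 97.2 CPM in CAST/EiJ (log2 fold change -0.90 ± 0.29, edgeR adjusted p = 0.0197), and its call was lost without any 1 of 5 libraries at adjusted p of 0.0501 to 0.0565. Leaving out 1 library gave 0 to 4 lower markers, 0 without NZO/HlLtJ replicate 2 or CAST/EiJ replicate 1, and leaving out CAST/EiJ replicates 1 and 2 together gave 0.

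The largest fold differences by the rule for named genes included immune genes given above and genes of other kinds. Ces2a, a carboxylesterase, stood at 182, 223, 0.201 and 137 CPM in NZO/HlLtJ, against 0, 0.122, 0.168 and 0 CPM in CAST/EiJ (edgeR adjusted p = 0.000865). Sstr1, a somatostatin receptor, stood at 22.6, 28, 1.92 and 28 CPM in NZO/HlLtJ, against 0.0243, 0.0915, 0 and 0.05 CPM in CAST/EiJ (edgeR adjusted p = 7.36e-07). NZO/HlLtJ replicate 3 was far below the other 3 NZO/HlLtJ libraries in both genes, close to the CAST/EiJ level for Ces2a. Fam213b, a prostaglandin F synthase, had 6.91, 6.95, 7.36 and 8.07 CPM in NZO/HlLtJ and no count in CAST/EiJ, at least 368-fold higher (edgeR adjusted p = 2.48e-08). Tmem254b had 2 counts in all CAST/EiJ libraries and a ratio of 994 (95% exact counting interval 275 to 8210). Hist2h2aa2, a histone H2A gene, had a ratio of 478 (132 to 3950), while its near-identical neighbour Hist2h2aa1 had 1.21 to 2.73 CPM in NZO/HlLtJ, against 20.7 to 29 CPM in CAST/EiJ (log2 fold change -3.50 ± 0.41, edgeR adjusted p = 1.8e-06) and Hist2h3c2, an H3 gene beside them, fell by 2.94 on the log2 scale (edgeR adjusted p = 9.05e-05).

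On the lower side, Gsdma3, a gasdermin, stood at 0.0303, 0, 0 and 0.0443 CPM in NZO/HlLtJ, against 53.1, 37.6, 49 and 39.9 CPM in CAST/EiJ, a ratio of CAST/EiJ over NZO/HlLtJ of 2220 (95% exact counting interval 761 to 10800). C57BL/6J had 0 in every library. Gad1, which makes the transmitter GABA, stood at 0.0606, 0, 0.0286 and 0.0665 CPM in NZO/HlLtJ, against 14, 10.5, 11.1 and 20.8 CPM in CAST/EiJ. The difference in Gad1 was -8.34 ± 0.50 on the log2 scale (edgeR adjusted p = 8.16e-11). Tas1r1, a subunit of the umami taste receptor, stood at 0.182, 0.317, 0.487 and 0.621 CPM in NZO/HlLtJ, against 65, 123, 88.1 and 69.3 CPM in CAST/EiJ. For Tas1r1, the log2 fold change was -7.70 ± 0.33 (edgeR adjusted p = 5.66e-13). Eno1b, a second enolase 1 gene, had 0.0866 to 0.485 CPM in NZO/HlLtJ, against 88 to 101 CPM in CAST/EiJ. Eno1b had a log2 fold change of -8.26 ± 0.43 (edgeR adjusted p = 1.15e-11). How reads were divided between Eno1b and Eno1 was not tested. Cst9, of the cystatins, had 0 to 0.155 CPM in NZO/HlLtJ, against 11.3 to 35.5 CPM in CAST/EiJ (edgeR adjusted p = 1.94e-08), whereas its neighbour Cst8 was higher by 1.65 (edgeR adjusted p = 0.0122). Tspan10, a tetraspanin, had 0.0289 to 0.143 CPM in NZO/HlLtJ, against 7.26 to 18.5 CPM in CAST/EiJ. The difference in Tspan10 was -7.66 ± 0.66 on the log2 scale (edgeR adjusted p = 2.17e-08). Eef1a2, an elongation factor of neurons and muscle, had 0 to 0.0887 CPM in NZO/HlLtJ, against 4.12 to 10.7 CPM in CAST/EiJ (edgeR adjusted p = 1.78e-06). Where a strain was near 0 the fitted fold followed 1 library: the log2 fold change was -8.62 for Cst9, -7.82 for Eef1a2 and -10.90 for Gsdma3 with all libraries and -12.56, -11.01 and -11.74 without NZO/HlLtJ replicate 4, and it was -8.40 for Tspan10 without NZO/HlLtJ replicate 3.

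The same held on the higher side. Without CAST/EiJ replicate 2 the fitted log2 fold change was 12.02 for Tmem254b, 10.94 for Hist2h2aa2 and 9.45 for Sstr1, against 9.63, 8.54 and 8.86 with all libraries. Without CAST/EiJ replicate 3 it was 11.78 for Ces2a, against 10.91 with all libraries. Among abundant genes, Itih5, a matrix-stabilising inhibitor heavy chain, had 812 to 989 CPM in NZO/HlLtJ, against 418 to 514 CPM in CAST/EiJ. For Itih5, the log2 fold change was 0.89 ± 0.28 (edgeR adjusted p = 0.0177). Syne2, a nuclear envelope protein, had 944 to 1273 CPM in NZO/HlLtJ, against 652 to 872 CPM in CAST/EiJ (log2 fold change 0.53 ± 0.17, edgeR adjusted p = 0.0173), a call lost without any 1 of 3 libraries at adjusted p of 0.0527 to 0.0646.

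Some genes and their processed copies differed in opposite directions, and these pairs were singled out after their values were seen. For 11 genes, a row of a copy named as a pseudogene passed in the direction opposite to the gene's own row, and in 8 of these both rows differed over 2-fold. The 11 genes were 9 of the cytosolic ribosome, Mrpl23 of the mitochondrial ribosome and Apoo, a protein of the inner mitochondrial membrane. Rpl9 (chr5:65388364-65391444), a protein of the large ribosomal subunit, averaged 30.95 ± 1.74 CPM in NZO/HlLtJ and 538.3 ± 30.1 CPM in CAST/EiJ ovaries (SD, n = 4 each), and its copy Rpl9-ps6 (chr19:32465885-32466575) averaged 531.6 ± 50.1 CPM in NZO/HlLtJ and 0.164 ± 0.0808 CPM in CAST/EiJ. The sum of both rows was 562.5 ± 50.5 CPM in NZO/HlLtJ and 538.4 ± 30.1 CPM in CAST/EiJ, a ratio of 1.045. Rps13 (chr7:116331505-116334195), of the small subunit, went the other way: it averaged 282.6 ± 33 CPM in NZO/HlLtJ and 36.75 ± 5.33 CPM in CAST/EiJ, and Rps13-ps1 (chr8:87047689-87048226) 0.49 ± 0.131 CPM in NZO/HlLtJ and 239 ± 2.94 CPM in CAST/EiJ. Their sum was 283.1 CPM in NZO/HlLtJ and 275.8 CPM in CAST/EiJ, a ratio of 1.027. In the 8 pairs the ratio of the sums was 0.8324 to 1.103, the sums overlapped between strains in 8 of 8, and the C57BL/6J values lay nearer to NZO/HlLtJ for both rows in 8 of 8. Of the other 3 pairs, the sums overlapped with a ratio of 1.009 for Rpl10a and 0.8961 for Rpl14. For Rpl5 and Rpl5-ps2 the sum was 47.01 to 56.27 CPM in NZO/HlLtJ, against 97.55 to 112 CPM in CAST/EiJ, a ratio of 0.4751 with no overlap, so the 2 rows did not balance.

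Gene and copy were 99.56% to 100% identical over the aligned coding bases of the reference in these 8 pairs. Stretches of 90 coding bases that hold differing bases are shown for both pairs, 5′ to 3′ on the coding strand of GRCm38, with the differing bases in capitals. For Rps13 and Rps13-ps1 they are coding bases 340 to 429, of which 2 differ, and for Rpl9 and Rpl9-ps6 coding bases 177 to 266, of which 1 differs.
Rps13: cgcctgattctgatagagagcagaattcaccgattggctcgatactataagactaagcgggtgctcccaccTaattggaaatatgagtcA
Rps13-ps1: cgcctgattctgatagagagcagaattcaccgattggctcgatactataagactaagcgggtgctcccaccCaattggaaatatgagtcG
Rpl9: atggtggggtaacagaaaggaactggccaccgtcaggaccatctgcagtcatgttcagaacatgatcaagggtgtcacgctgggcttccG
Rpl9-ps6: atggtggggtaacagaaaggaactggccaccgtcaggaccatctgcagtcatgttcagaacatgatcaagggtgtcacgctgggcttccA

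Within the aligned coding bases of the reference, a read that covers none of the differing bases matches both places. How the authors' counting divided such reads is not given in the sources used here. Bases outside the alignment were not compared. The mitochondrial gene mt-Co2, a subunit of complex IV, was a related case. It averaged 1506 ± 246 CPM in NZO/HlLtJ and 6.03 ± 1.71 CPM in CAST/EiJ, while Gm13341, a nuclear copy at chr2:22587291-22587962 that is 95.91% identical to it, averaged 0.0375 ± 0.0575 CPM in NZO/HlLtJ and 971.7 ± 23.9 CPM in CAST/EiJ. The sum was 1.54 times higher in NZO/HlLtJ, so for this gene the 2 rows did not balance. mt-Co2 is the 1 member of the oxidative phosphorylation list counted above as higher.

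**Figure D4:**
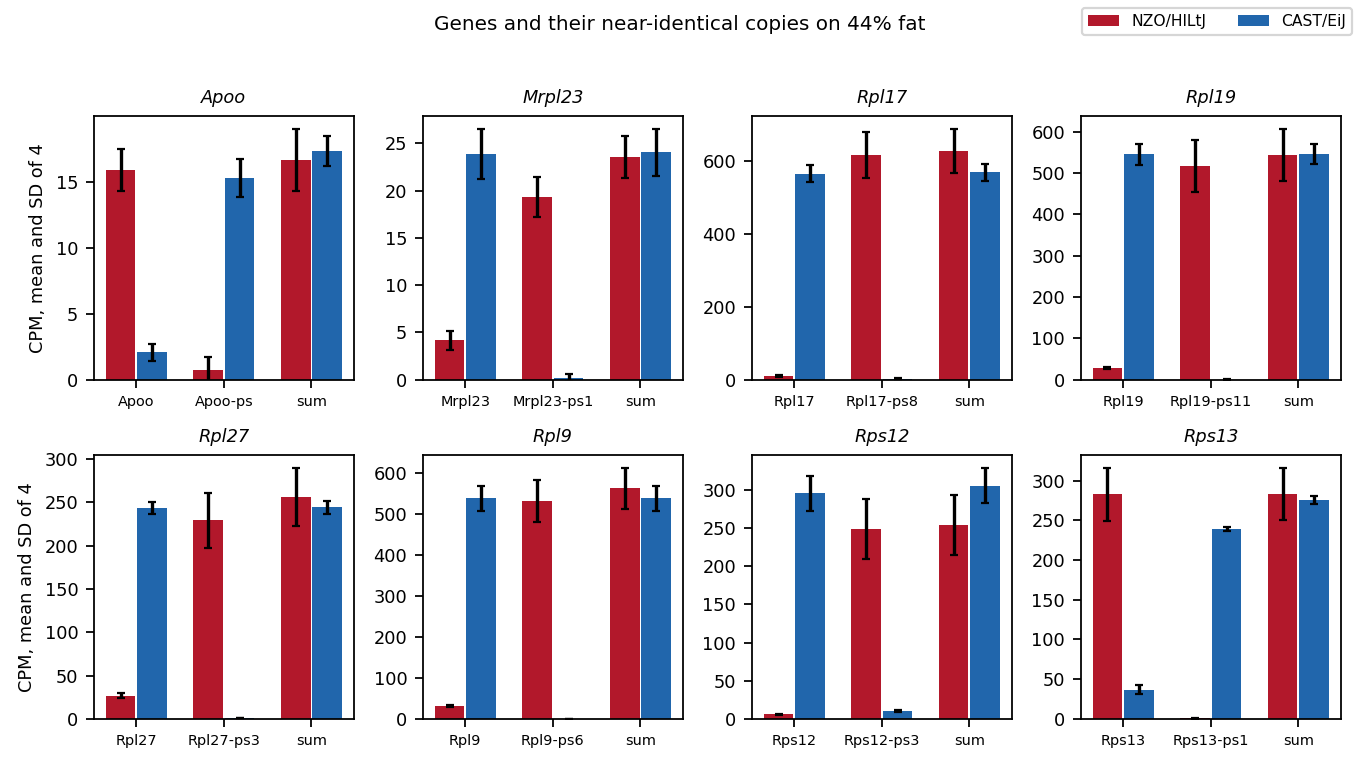
Mean levels (CPM, linear axes from 0 that differ between panels, error bars SD, n = 4 libraries) of 8 genes, their processed copies and the sum of both, NZO/HlLtJ left of CAST/EiJ, on 44% fat. Gene and copy rows differ in opposite directions, and the sums of the 2 strains lie within ratios of 0.8324 to 1.103.

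The same strains on 10% fat gave 8 further libraries, in which 6757 genes (33.5%) passed, 3296 higher (16.3%) and 3461 lower (17.1%) in NZO/HlLtJ. Of the calls on 44% fat, 63.5% passed in the same direction on 10% fat, which is 65.4% of the calls there, and 16 passed in the opposite direction. Of the 6959 genes, 6612 (95%) had the same sign. T and natural killer cell markers were higher for 14 of 20 on 10% fat and MHC class II genes for 10 of 12. Interferon-induced GTPases were higher for 12 of 22, and the other interferon-stimulated genes for 10 of 33. Tgtp2 averaged 7.19 CPM in NZO/HlLtJ and 0.0333 CPM in CAST/EiJ ovaries on 10% fat, and Iigp1 again had no count in CAST/EiJ.

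Several groups that were lower in NZO/HlLtJ on 44% fat had smaller counts on 10% fat. Lysosome and lipid-associated macrophage genes were lower for 4 of 25 there and higher for 2, steroid synthesis enzymes lower for 2 of 23 and higher for 1, and matrix genes lower for 4 of 38 and higher for 10. Cyp11a1 averaged 1523 CPM in NZO/HlLtJ and 1509 CPM in CAST/EiJ ovaries on 10% fat (log2 fold change 0.01, edgeR adjusted p = 0.976). Ctsd averaged 446 CPM in NZO/HlLtJ and 599 CPM in CAST/EiJ ovaries (log2 fold change -0.43, edgeR adjusted p = 0.025). Mmp2 averaged 187 CPM in NZO/HlLtJ and 238 CPM in CAST/EiJ ovaries (log2 fold change -0.35, edgeR adjusted p = 0.244), and Akr1c18 averaged 99.8 CPM in NZO/HlLtJ and 31.7 CPM in CAST/EiJ ovaries (log2 fold change 1.65, edgeR adjusted p = 0.195). The test of the difference between diets did not pass for any of these 4, with edgeR adjusted p = 0.165 for Cyp11a1, 0.165 for Ctsd, 0.165 for Mmp2 and 0.158 for Akr1c18, so a change with diet is not shown. Unfolded protein response genes were lower for 13 of 25 and higher for 0 on 10% fat as well. Markers of neighbouring tissue also differed on 10% fat. Their median log2 fold changes there were -3.52 for the oviduct list and -5.25 for the white adipocyte list. The part of such tissue in the values on 10% fat and in the test between diets was not tested. Without CAST/EiJ replicate 2 on 10% fat, 45 of the 6757 calls there changed sign.

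The test of the strain difference on 44% fat against that on 10% fat passed for 3 of 20189 genes (0.0149%), and 2297 had an unadjusted p under 0.05. In all 3 the log2 fold change was lower on 44% fat than on 10% fat. The third, Tbx3, a T-box transcription factor, did not pass on 44% fat. Cotl1, an actin-binding protein of leukocytes, stood at 23.5, 24.5, 27.2 and 28.2 CPM in NZO/HlLtJ, against 59.6, 49.1, 41.7 and 34.9 CPM in CAST/EiJ on 44% fat (log2 fold change -0.84 ± 0.13, edgeR adjusted p = 4.06e-05) and averaged 32.7 CPM in NZO/HlLtJ and 27.1 CPM in CAST/EiJ ovaries on 10% fat. Tst, the mitochondrial sulfur transferase rhodanese, stood at 83.2, 82.8, 84.7 and 102 CPM in NZO/HlLtJ, against 112, 127, 123 and 96.5 CPM in CAST/EiJ on 44% fat, where replicate 4 of each strain overlapped (log2 fold change -0.38 ± 0.14, edgeR adjusted p = 0.0385), and averaged 111 CPM in NZO/HlLtJ and 63.8 CPM in CAST/EiJ ovaries on 10% fat. The differences between diets were -1.11 ± 0.18 for Cotl1 and -1.19 ± 0.20 for Tst on the log2 scale (edgeR adjusted p = 0.0432 for each). Cyp4f18, a leukotriene hydroxylase, stood at 1.18, 0.808, 0.888 and 1.4 CPM in NZO/HlLtJ, against 36.9, 34.4, 65.2 and 38 CPM in CAST/EiJ (log2 fold change -5.34 ± 0.40, edgeR adjusted p = 3.09e-09) and averaged 1.26 CPM in NZO/HlLtJ and 7.53 CPM in CAST/EiJ ovaries on 10% fat, with a difference of -2.78 ± 0.50 that did not pass (edgeR adjusted p = 0.063). Fermt3, an integrin activator of blood cells, and Slc36a1, a lysosomal amino acid transporter, did not pass either (edgeR adjusted p = 0.063 and 0.0766). On 44% fat the log2 fold change was -0.92 for Fermt3 (edgeR adjusted p = 0.000459) and -0.44 for Slc36a1 (edgeR adjusted p = 0.00132). Leaving out 1 of the 16 libraries left 0 to 11 genes past the threshold, 0 in 10 of the 16 cases and 11 without NZO/HlLtJ replicate 2 on 10% fat, and DESeq2 called 194. On 44% fat alone, the call for Tst was lost without any 1 of 6 libraries, up to an adjusted p of 0.104 without CAST/EiJ replicate 2.

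**Figure D5:**
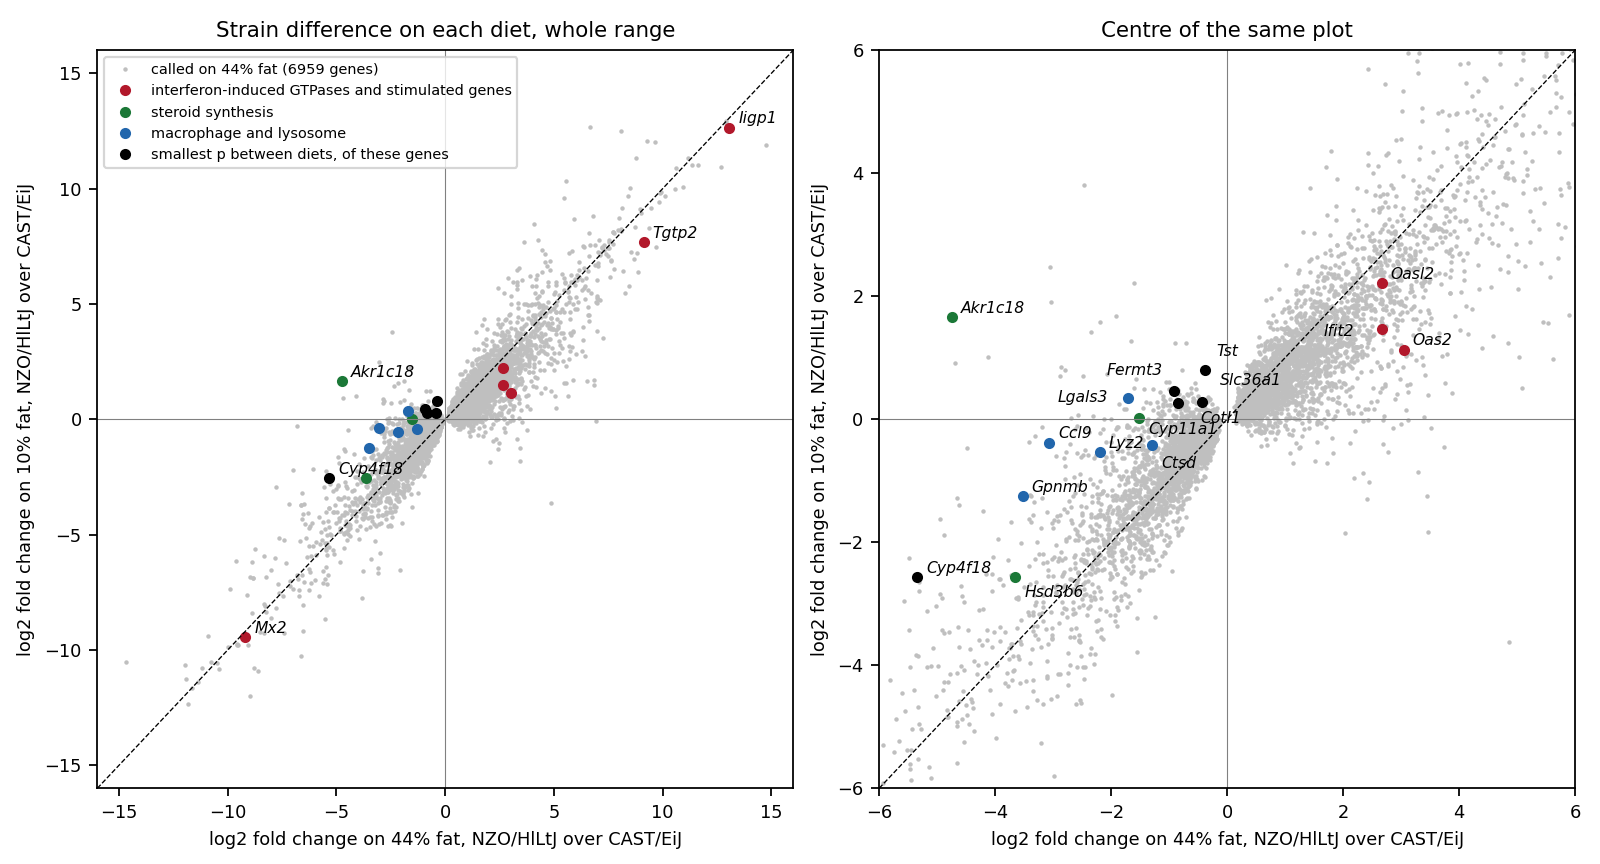
Log2 fold changes, NZO/HlLtJ over CAST/EiJ, of the 6959 genes that passed on 44% fat (x axis) against those of the same genes on 10% fat (y axis), over the full range and near 0, with genes of the text marked; the 2 diets share no library. Most points lie near the diagonal, and 6612 have the same sign on both axes.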

How the data were processed

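Polyadenylated RNA of ovary was sequenced in 23 libraries, of which 8 were compared here. The table that the authors deposited holds expected counts per gene, since 27.4% of its values are not whole numbers and library totals differ. The authors also deposited variance-stabilised values on a log2 scale, used as an alternative. Per the submitters' processing notes the build is GRCm38 and DESeq2 was used; aligner and counter are not given in the sources used here.

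Expected counts were rounded, filtered with filterByExpr (minimum count 10, minimum total 15), scaled by trimmed means of M values and tested with edgeR's quasi-likelihood F test (robust), using 6 group means over 23 libraries. Adjusted p is Benjamini-Hochberg over 20189 genes, threshold 0.05, for each of 3 comparisons, and the error given with ± beside a log2 fold change is its standard error, the fold change over the root of F. Exact intervals and floors cover counting error only. Totals were 31.94 to 43.54 M, and the 12 pairs of libraries within the 2 groups had chi-square values of 12.4 to 64.15 for each degree of freedom, and none was counted as a duplicate. Replicates are numbered in deposit order. Gene types came from GENCODE M21, coordinates from the authors' deposited annotation, promoters from RefSeq. The scripts were tested on simulated data.

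Named genes are up to 10 per direction by fold (mean at least 5 CPM in the higher strain, no overlap, no predicted-gene or pseudogene name), up to 5 by difference in CPM, up to 4 per direction and 2 that did not pass from each list, 5 by the test between diets, and neighbours within 1 Mb that passed in the opposite direction; which of them are described was decided with their values known. Some genes that the rule names are not reported here. The comparison and the 38 lists were chosen with earlier results of these data known. Alternatives were other scalings, no filter, the 8 libraries alone, the identifier series as a term, DESeq2, limma, and libraries left out. The work used edgeR 4.0.16, DESeq2 1.42.0 and limma 3.58.1 in R 4.3.3.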

Additional observations from a re-analysis of the deposited data

Results flagged for a closer look

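Of 298 groups of 4 libraries (149 genes in 2 strains), 33 (11.1%) held 1 library far from the other 3 by Dixon's criterion. Chance alone flags about 1 in 20 groups (14.9 here). Groups whose highest library was under 1 CPM are among the 298 but could not be flagged, so the number flagged may be too low. Genes of a pathway move together, so the groups are not independent.

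CAST/EiJ replicate 1 was the high library in 10 of the flagged groups. Its levels and the range of the other CAST/EiJ libraries were 3.45 CPM against 0.924 to 1.04 for Oas2, 2.9 against 0.25 to 0.421 for Ifi44, 17.7 against 4.57 to 5.97 for Oasl2, 84.5 against 18.6 to 23.4 for Mx2 and 43.4 against 35.1 to 35.8 for Trim12c. They were 11.7 CPM against 2.41 to 2.89 for Ifit1, 8.44 against 1.01 to 1.7 for Ifit3 and 16.1 against 5.49 to 6.27 for Gbp6. All 8 of these are interferon-inducible. The others were Pdia4 (770.5 CPM against 383.6 to 429.9) and Foxj1 (1.24 CPM against 0.649 to 0.729).

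CAST/EiJ replicate 2 was high for Erap1 (80.05 CPM against 76.5 to 77.1), C1qa (89.4 against 44.2 to 51.5), Ccl9 (34.2 against 13.7 to 15.3), C5ar1 (14.3 against 8.86 to 9.29), Acaca (329.6 against 216.3 to 233.2) and Abcg1 (57.3 against 29.8 to 32.5), and low for Igfbp5 (303.0 against 400.8 to 415.4). CAST/EiJ replicate 3 was high for Hsd3b6 (12.1 CPM against 3.07 to 4.12) and Cyp4f18 (65.2 against 34.4 to 38.1), and low for Plin1 (41.2 against 97.2 to 99.8).

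NZO/HlLtJ replicate 3 was high for Aldh1a1 (1013 CPM against 892.2 to 908.8), Pdia6 (276.9 against 237.3 to 240.3), Gstm2 (201.7 against 99.9 to 101.4), Gstm7 (82.7 against 54.1 to 56.4), Cfd (1.66 against 0 to 0.202) and Adipoq (2.95 against 0.0606 to 0.375), and low for C1s1 (221.3 against 245.7 to 245.9). NZO/HlLtJ replicate 1 was high for Nlrc5 (18.7 CPM against 9.14 to 10.5), H2-K1 (108.3 against 66.0 to 72.6) and Nlrp1b (1.46 against 1.06 to 1.12). NZO/HlLtJ replicate 2 was high for H2-Ob (1.24 CPM against 0.909 to 0.946). NZO/HlLtJ replicate 4 was high for Tst (101.5 CPM against 82.8 to 84.7) and low for mt-Atp6 (1008 against 1355 to 1404).

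The strain difference itself differed between diets for 3 genes (edgeR adjusted p = 0.0432 for each), by -1.39 for Tbx3, -1.11 for Cotl1 and -1.19 for Tst on the log2 scale, 44% fat minus 10% fat. Tbx3, a T-box transcription factor, differed between strains by 0.066 on 44% fat, where it did not pass, and by 1.45 on 10% fat.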

How the results depend on the processing

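The count of 6959 genes on 44% fat was 4874 to 7493 under the other settings: 6906 with relative log expression and 6803 with upper-quartile factors, 6824 with no filter, 7041 in a fit of the 8 libraries alone, 6180 with the identifier series as a term, 7493 with DESeq2, 7136 with limma on the variance-stabilised values, and 4874, from fewer libraries, without CAST/EiJ replicates 1 and 2. Leaving out 1 library gave 5756 to 6322 genes on 44% fat (2917 to 3254 higher, 2839 to 3197 lower) and 5697 to 6631 on 10% fat. The 3 genes that differed between diets became 0 with the identifier series as a term, 194 with DESeq2 and 0 to 11 without 1 library; the cause was not tested. Cfd reversed to 0.16 within identifier series 90 (2 NZO/HlLtJ libraries and 1 of CAST/EiJ, no test), which lacks both CAST/EiJ libraries with the highest adipocyte marker sums. No label calls the series, the first digits of the library identifiers, a batch. On 44% fat, NZO/HlLtJ replicates 1 and 2 and CAST/EiJ replicate 1 were in series 76. CAST/EiJ replicates 2 and 3 were in series 82, which held no NZO/HlLtJ library on that diet, and the others in series 90. Strain and series therefore partly coincide. The series term kept 85.5% of the calls on 44% fat. Of the named genes, DESeq2 and the fit of 8 libraries called Star, Col1a1 and Gbp2, and the fit of 8 libraries also H2-K1 and Bmp15. That fit lost Gbp4 (adjusted p = 0.0556), Ctss (0.0568), Ifi203 (0.0554) and Cfd (0.06). The series term lost Itih5 (0.055), Akr1c19 (0.0678), Erap1 (0.0731), Gbp8 (0.076) and Cfd (0.133). Erap1 was also lost with DESeq2, limma, no filter and both scalings (0.0518 to 0.119), and Gbp8 with limma, no filter and both scalings (0.051 to 0.203). Limma also lost Cfd (0.136) and Ifi203 (0.0571), and upper-quartile factors Ifi203 (0.0654) and Tst (0.0648). Leaving out CAST/EiJ replicates 1 and 2 together, which leaves fewer libraries, ended 23 calls: Akr1c19, Akr1e1, Aldh1a1, C1qa, Cfd, Cst8, Ctss, Erap1, Gbp8, Gstm7, Ifi203, Ifi204, Itih5, Lepr, mt-Co3, mt-Nd1, mt-Nd4, Myh11, Plin1, Syne2, Trim12c, Tst and Zp1 (adjusted p of 0.0501 for mt-Co3 to 0.982 for Cfd). It added Cd4, Ifit1 and Ifit3. Calls lost without 1 library stand beside their genes. In list counts, the fit of 8 libraries gave 10 lower genes of fatty acid synthesis (6 in the fit reported), 10 higher of insulin and leptin signalling (6), 4 lower granulosa genes (2) and 5 lower smooth muscle markers (9), and the series term gave 3 lower genes of fatty acid synthesis, 2 higher matrix genes (4) and 1 lower adipocyte marker (4). Levels near 0 limit folds to the bounds given. No paired analysis was possible because replicate numbers follow the order of deposit and no label links a library of 1 strain to one of the other.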

Other observations

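The other lists gave the following counts, against a background of 17% higher and 17.4% lower. Of 26 cell proliferation genes 0 were higher and 1 lower in NZO/HlLtJ (3 lower without NZO/HlLtJ replicate 3 or CAST/EiJ replicate 2, 2 without CAST/EiJ replicate 1), of 16 genes of the ovulatory response 0 were higher and 1 lower, and of 15 oviduct markers 1 was higher and 1 lower. Of 16 surface epithelium markers 1 was higher and 6 lower, of 30 genes of glucose uptake and glycolysis 2 were higher (1 without any 1 of 5 libraries) and 7 lower, and of 33 xenobiotic cytochromes P450 and efflux pumps 5 were higher and 11 lower (7 lower without CAST/EiJ replicates 1 and 2 together). The surface epithelium list was 37.5% lower and the xenobiotic list 33.3%. Of 25 immediate early genes 6 were higher and 3 lower. The number higher was 2 without NZO/HlLtJ replicate 2 or CAST/EiJ replicate 2, 3 without NZO/HlLtJ replicate 4 or CAST/EiJ replicate 1, and 1 without CAST/EiJ replicates 1 and 2 together. Of 8 neutrophil and mast cell markers 2 were higher and 1 lower (1 higher without any 1 of 5 libraries), and of 8 erythroid genes 2 were higher and 0 lower.

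On 10% fat, 9 of the 15 oviduct markers and 13 of the 16 white adipocyte markers were lower in NZO/HlLtJ. Foxj1 averaged 0.165 CPM in NZO/HlLtJ and 28.1 CPM in CAST/EiJ ovaries there (edgeR adjusted p = 0.00415), against the values on 44% fat given above.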
